A study of Mus musculus with 8 samples.

Results

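Insulin keeps the liver in its fed programme through a short chain of proteins, and 10 genes of that chain were read in control and Mc1r LKO livers. They were the insulin receptor (Insr), its adaptors (Irs1 and Irs2), a regulatory and a catalytic subunit of phosphoinositide 3-kinase (Pik3r1 and Pik3ca), the kinases Akt1 and Akt2, the transcription factors Foxo1 and Foxo3, and the FoxO1 target Igfbp1. The genes were matched by symbol. All 10 were found, each with 1 identifier, among the 55487 genes of the count tables, and all 10 were among the 13400 genes kept by the filter on low counts.

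Liver RNA was sequenced from 8 adult males, of which mice 154, 159, 181 and 193 were the controls and mice 141, 156, 157 and 182 the Mc1r LKO group. For 12 weeks all had eaten a Western diet rich in cholesterol, and they were killed after a fast of a few hours. Mc1r LKO mice carry floxed Mc1r alleles (Mc1r fl/fl) and a Cre recombinase driven by the albumin promoter (Alb Cre/+), which deletes the melanocortin 1 receptor in hepatocytes, while control mice are Mc1r fl/fl without Cre. The study asked what loss of this receptor in hepatocytes changes in the liver on this diet, and the comparison below asks it of the insulin signalling genes. The pieces were whole liver, so fewer cells of a type and less RNA per cell cannot be told apart.

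Between 10773151 and 24763375 read pairs were counted on genes per mouse, and values are given as TMM-normalized CPM, which is the count scaled to a common library size. The lowest count of any of the 10 genes in any mouse was 122, for Irs2. Mc1r had 0 counts in all 8 mice, and the limit that counting error sets is 3 counts (0.121 to 0.278 CPM, depending on the mouse), so the genotypes could not be checked against it. Albumin (Alb), the defining hepatocyte marker, was between 51800 and 74800 CPM. On the first principal component of all genes, Mc1r LKO mouse 182 and control mouse 181 had positive scores (59.3 and 27.8). The other mice had negative scores, down to -28.2 in control mouse 159, which lay about as far from the centre as mouse 181. Mouse 182 had the lowest summed levels of the cholangiocyte, macrophage, endothelial and stellate cell markers (27.0, 99.8, 98.6 and 174 CPM).

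Insulin bound to its receptor leads to phosphorylation of the IRS adaptors, which recruit phosphoinositide 3-kinase, and the lipid it makes at the membrane activates AKT. AKT phosphorylates FoxO1 and keeps it out of the nucleus, so that targets such as Igfbp1, Irs2 and the gluconeogenic enzymes are repressed after a meal and released in fasting. In parallel, insulin induces the lipogenic programme through SREBP-1c. Much of this control is by phosphorylation and localisation, which RNA levels do not measure, and the mRNAs that respond fastest to insulin in the liver include Igfbp1 and Irs2.

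The classical route from insulin to Igfbp1 runs through an insulin response element, a FoxO1 binding sequence with the core CAAAACAA. The 250 bases before each RefSeq start (GRCm38.p6, 14 promoters of 9 of the 10 genes) were searched on both strands for these letters and for the FoxO consensus GTAAACA, which do not overlap each other in any of the windows below. The core was found before Igfbp1, Irs2 and Irs1, and the consensus before Akt1. These 4 stretches are shown because they are the ones that hold a match, which stands in capitals, with the bases beside it in lower case. On the gene's own strand they read:
Igfbp1: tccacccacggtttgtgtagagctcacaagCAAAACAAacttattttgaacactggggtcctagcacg
Irs2: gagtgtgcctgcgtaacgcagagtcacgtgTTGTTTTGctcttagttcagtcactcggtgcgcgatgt
Irs1: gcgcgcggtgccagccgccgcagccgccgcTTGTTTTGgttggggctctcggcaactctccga
Akt1: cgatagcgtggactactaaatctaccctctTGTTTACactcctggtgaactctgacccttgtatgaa

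The Igfbp1 stretch is chr11:7197649-7197716 on the plus strand, with the core 108 to 101 bases before the start. The Irs2 stretch is chr8:11008930-11008997 on the minus strand, with the core 38 to 31 bases before a RefSeq start (11008929) that lies upstream of the gene end in the count tables (11008458), and it lies within the gene 9530052E02Rik of those tables. The Irs1 stretch is chr1:82291440-82291502 on the minus strand, with the core 33 to 26 bases before the start. The Akt1 stretch is chr12:112675009-112675075 on the minus strand, with the consensus 161 to 155 bases before the start. The Igfbp1, Irs1 and Akt1 stretches overlap no gene of the tables. Of 32851 promoters of the same length, 727 (2.21%) hold CAAAACAA and 1040 (3.17%) hold GTAAACA, against 3 and 1 of the 14 promoters of these genes. In the list of FoxO1 targets read below, 21 genes had a promoter to search. Of these, 3 hold the core, Igfbp1 and Irs2 among them, and 2 hold the consensus, so most of the listed targets hold neither here. A match is a description of the letters and not a measured binding site.

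Only Foxo1 among the 10 genes passed the unadjusted threshold (p under 0.05 and a log2 fold change of 0.25 or more in either direction) in edgeR's quasi-likelihood test, and it was higher in Mc1r LKO mice. The background is 354 of 13400 genes higher (2.64%) and 357 lower (2.66%), or 711 in either direction (5.31%), and 0 of the 10 genes were called lower. With Benjamini-Hochberg adjustment over all genes, 0 of the 10 genes and 0 of 13400 genes (0%) passed an adjusted p of 0.05 in edgeR, where DESeq2 called 17 genes and limma-voom 0, none of the 17 among the 10. The fitted level was higher in Mc1r LKO mice for 5 genes and lower for 5, with a median log2 fold change of 0.029 against -0.011 over all genes tested. Foxo1 was also the only one of the 10 whose genotypes did not overlap, against 558 of 13400 genes (4.16%).

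**Figure D1:**
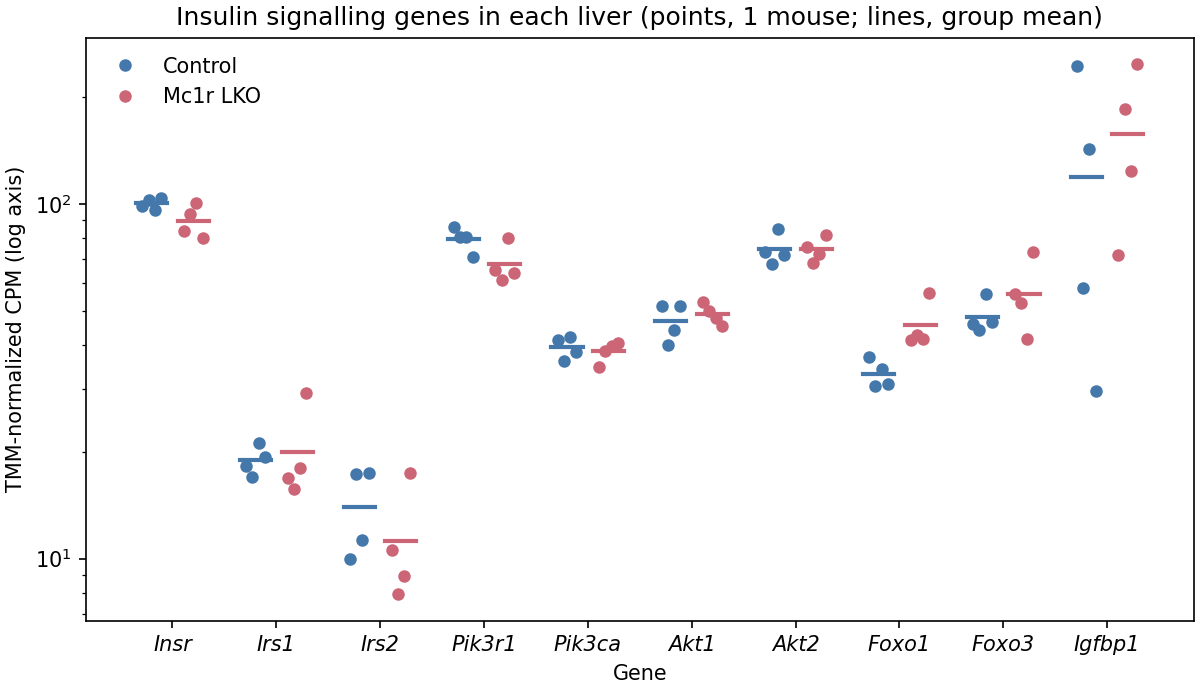
TMM-normalized CPM (log axis) of the 10 insulin signalling genes in each of 4 control (blue) and 4 Mc1r LKO livers (red), with 1 point per mouse and a line at each group mean. Foxo1 separates the genotypes, with 30.6 to 37.1 CPM in control and 41.4 to 56.3 CPM in Mc1r LKO mice, while Igfbp1 spreads from 29.7 to 248 CPM.

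Insr, the receptor tyrosine kinase at the head of the pathway (ENSMUSG00000005534, chr8:3122061-3279617, minus strand of GRCm38), was at 98.7, 103, 96.1 and 104 CPM in control mice 154, 159, 181 and 193. In Mc1r LKO mice 141, 156, 157 and 182 it was at 83.9, 94.0, 101 and 80.0 CPM. The control mice lay close together, and mouse 157 fell within their range while the other Mc1r LKO mice were below it. The means were 100 ± 3.66 CPM and 89.7 ± 9.43 CPM (SD, n = 4 each), a log2 fold change of -0.16 with a 95% interval from -0.37 to 0.042 (edgeR, adjusted p = 0.799, exact permutation p = 0.0857).

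The adaptors Irs1 and Irs2, which the receptor phosphorylates, were the lowest of the 10 genes per exon length. Irs1 (ENSMUSG00000055980, chr1:82233101-82291416, minus strand) was at 18.3, 17.0, 21.2 and 19.4 CPM in control mice 154, 159, 181 and 193 and at 16.9, 15.7, 18.0 and 29.3 CPM in Mc1r LKO mice 141, 156, 157 and 182. Mouse 182 stood above all others, and the other Mc1r LKO mice were in or below the lower part of the control range. The means of 19.0 ± 1.75 and 20 ± 6.26 CPM (SD, n = 4 each) gave a log2 fold change of 0.074 (95% interval from -0.34 to 0.49, edgeR, adjusted p = 0.964). Without mouse 182 the sign turned, to -0.17.

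Irs2, the adaptor whose own transcription FoxO1 and fasting raise (ENSMUSG00000038894, chr8:10984681-11008458, minus strand), was at 10.0, 17.3, 11.3 and 17.4 CPM in control mice 154, 159, 181 and 193. The Mc1r LKO mice 141, 156, 157 and 182 were at 10.6, 7.93, 8.93 and 17.4 CPM. Both genotypes thus held mice with a high and mice with a low level, and mouse 182 was as high as the higher control pair. The means were 14.0 ± 3.92 and 11.2 ± 4.26 CPM (SD, n = 4 each), with a log2 fold change of -0.32 (SE 0.27, 95% interval from -0.92 to 0.28, edgeR, adjusted p = 0.882). The value depended on single mice. The log2 fold change was -0.18 without mouse 193 or without mouse 156, -0.20 without mouse 159 and -0.21 without mouse 157, none of them called. It was -0.61 without mouse 182 (adjusted p = 0.578) and -0.70 without mice 181 and 182 (adjusted p = 0.662), and these were past the unadjusted threshold.

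Around the receptor, a list of 12 receptors and adaptors, which includes Insr, Irs1 and Irs2, had 0 genes called in edgeR, DESeq2 or limma-voom at this threshold. For so short a list this is close to the 5.31% of all genes called either way in edgeR. The median log2 fold change of the list was -0.033. Ceacam1, a hepatocyte surface protein that promotes insulin clearance, was between 96.3 and 119 CPM in control and between 97.5 and 148 CPM in Mc1r LKO mice (log2 fold change 0.13, edgeR adjusted p = 0.911).

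Pik3r1 encodes p85 alpha, the regulatory subunit that docks the kinase on the IRS adaptors (ENSMUSG00000041417, chr13:101680563-101768217, minus strand). It was at 85.9, 80.5, 81.0 and 71.1 CPM in control mice 154, 159, 181 and 193 and at 65.1, 61.1, 80.4 and 63.9 CPM in Mc1r LKO mice 141, 156, 157 and 182. The Mc1r LKO mice lay below all control mice except for mouse 157, which was within the control range. The means of 79.6 ± 6.19 and 67.6 ± 8.70 CPM (SD, n = 4 each) gave a log2 fold change of -0.23 (SE 0.11, 95% interval from -0.47 to 0.0018, edgeR, adjusted p = 0.744, exact permutation p = 0.0571). It was called at the unadjusted threshold without mouse 157 (-0.32), without mouse 193 (-0.28) and with library size alone as normalization (-0.28).

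Pik3ca, the catalytic subunit p110 alpha that carries most of the insulin signal in liver (ENSMUSG00000027665, chr3:32397671-32468486, plus strand), was at 41.3, 36.2, 42.2 and 38.2 CPM in control mice and at 34.8, 38.4, 39.9 and 40.6 CPM in Mc1r LKO mice, in the same order of mice. The ranges overlapped almost fully, with a log2 fold change of -0.038 (95% interval from -0.23 to 0.16, edgeR, adjusted p = 0.962).

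Of a list of 8 genes of phosphoinositide 3-kinase, 1 was called, Pik3cd, and it was lower in Mc1r LKO mice, against 2.66% of all genes called lower and 5.31% called either way. It encodes p110 delta, a catalytic subunit found mainly in leukocytes. It was at 4.41, 11.5, 4.12 and 6.89 CPM in control mice 154, 159, 181 and 193 and at 3.80, 3.77, 3.88 and 2.71 CPM in Mc1r LKO mice 141, 156, 157 and 182, without overlap. The log2 fold change was -0.91 (SE 0.32, edgeR, adjusted p = 0.734), and without control mouse 159 it was -0.54 and no longer called. The 5 macrophage markers were all lower in mean in Mc1r LKO mice with 0 called and a median log2 fold change of -0.43, and their summed level was 146 to 316 CPM in control mice, highest in mouse 159, and 99.8 to 255 CPM in Mc1r LKO mice. All 5 macrophage markers were detected. None of 5 lymphocyte markers was kept by the filter, and their sum was 0.909 to 3.16 CPM in control and 0.845 to 1.64 CPM in Mc1r LKO mice. The part of either cell type in the Pik3cd difference was not tested.

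Akt1 and Akt2 encode the kinases that pass the signal to FoxO1, to glycogen synthesis and to mTORC1, with Akt2 the main form in insulin action on glucose. Akt1 (ENSMUSG00000001729, chr12:112653821-112674884, minus strand) was at 51.7, 40, 44.2 and 51.6 CPM in control mice 154, 159, 181 and 193 and at 52.9, 49.8, 47.6 and 45.2 CPM in Mc1r LKO mice 141, 156, 157 and 182. Akt2 (ENSMUSG00000004056, chr7:27591552-27640826, plus strand) was at 73.4, 67.8, 85.0 and 71.7 CPM in the control mice and at 75.6, 68.2, 72.2 and 81.9 CPM in the Mc1r LKO mice, in the same order of mice. For both genes the genotypes overlapped over most of their range. The log2 fold change was 0.058 for Akt1 (95% interval from -0.17 to 0.29, edgeR, adjusted p = 0.941) and -0.00027 for Akt2 (95% interval from -0.22 to 0.22), and the sign of the Akt2 value turned with the normalization.

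Of a list of 15 genes of AKT and mTOR signalling, 1 was called, Eif4ebp1, and it was higher in Mc1r LKO mice, against 2.64% of all genes called higher and 5.31% called either way. It encodes 4E-BP1, the translation repressor that mTORC1 inactivates by phosphorylation. It was at 42.7, 41.6, 36.7 and 42.6 CPM in control mice and at 49.5, 58.2, 49.8 and 42.1 CPM in Mc1r LKO mice, with mouse 182 within the control range. The log2 fold change was 0.29 (SE 0.11, edgeR, adjusted p = 0.734, exact permutation p = 0.0857). It was not called without control mouse 181 (0.24), without mouse 156 (0.20) or with library size alone (0.24).

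Among 19 negative regulators of the pathway, of which Socs1 and Irs3 were not kept by the filter, Inppl1 was called lower, against 2.66% of all genes, and none higher. Inppl1 encodes SHIP2, a phosphatase that removes a phosphate from the lipid made by phosphoinositide 3-kinase. It was at 38.8, 38.5, 35.6 and 43.4 CPM in control mice 154, 159, 181 and 193 and at 31.3, 29.2, 29.4 and 32.0 CPM in Mc1r LKO mice 141, 156, 157 and 182, so that all Mc1r LKO mice were below all control mice. The log2 fold change was -0.36 (SE 0.087, edgeR, adjusted p = 0.734, exact permutation p = 0.0286). It stayed between -0.42 and -0.30 and past the unadjusted threshold under every alternative run. The means were 39.1 ± 3.22 and 30.5 ± 1.38 CPM (SD, n = 4 each). Over the 4 pathway lists together, 52 of 54 genes were tested. Of these, 1 was called higher and 2 lower, close to the 5.31% of all genes called in either direction. The median log2 fold change was -0.067, and 19 genes were higher and 33 lower in mean. The genotypes did not overlap in 2 of the 52, Pik3cd and Inppl1, against 4.16% of all genes.

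**Figure D2:**
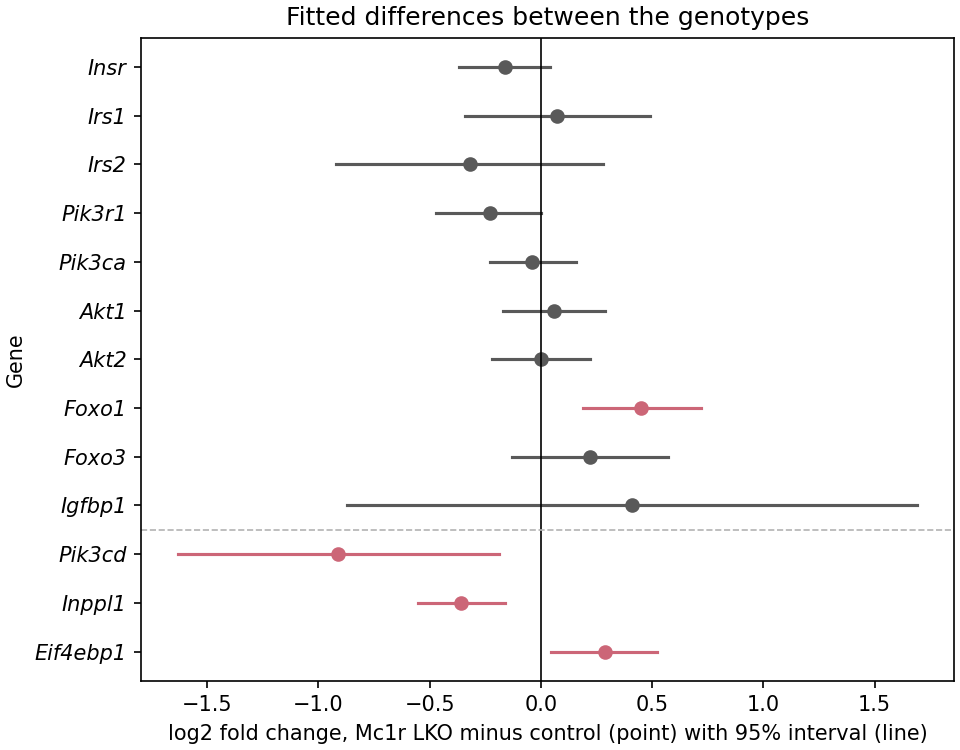
Fitted log2 fold change of Mc1r LKO minus control mice (point) with its 95% interval (line) for the 10 genes and, below the dashed line, for the 3 further pathway genes called at the unadjusted threshold. Red marks called genes, and the Igfbp1 interval, from -0.87 to 1.69, is the widest of the 10.

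Foxo1 was 1.37-fold higher in Mc1r LKO mice. FoxO1 is the main transcription factor that AKT restrains in the liver, and it drives gluconeogenic genes and Igfbp1 in fasting. Foxo1 (ENSMUSG00000044167, chr3:52268336-52353221, plus strand) was at 37.1, 30.6, 34.3 and 31.1 CPM in control mice 154, 159, 181 and 193 and at 41.4, 42.8, 41.6 and 56.3 CPM in Mc1r LKO mice 141, 156, 157 and 182. All Mc1r LKO mice were above all control mice, with mouse 182 well above the other Mc1r LKO mice, which lay close together. The means were 33.2 ± 3.02 and 45.5 ± 7.19 CPM (SD, n = 4 each), with a log2 fold change of 0.45 (SE 0.12, 95% interval from 0.19 to 0.72, edgeR, adjusted p = 0.734). A two-sided exact permutation test over the mice gave p = 0.0286, the smallest that 4 mice against 4 allow. Without mouse 182 the log2 fold change was 0.34, and over all alternatives it was between 0.34 and 0.51, past the unadjusted threshold each time and with adjusted p-values from 0.183 to 0.985.

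Foxo3, a related factor that AKT also phosphorylates (ENSMUSG00000048756, chr10:42181841-42276755, minus strand), was at 45.8, 44.2, 55.6 and 46.5 CPM in control mice and at 55.9, 52.6, 41.7 and 73.5 CPM in Mc1r LKO mice, in the same order of mice. Mouse 182 was the highest and mouse 157 the lowest of all 8, so the genotypes overlapped. The log2 fold change was 0.22 (SE 0.16, 95% interval from -0.13 to 0.57, edgeR, adjusted p = 0.858), and without mouse 157 it was 0.35 and called at the unadjusted threshold. Of the remaining family members, Foxo4 had a log2 fold change of 0.08 (adjusted p = 0.921) and Foxo6 was not kept by the filter.

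Igfbp1, a secreted binding protein of insulin-like growth factors that hepatocytes make when insulin is low, varied more between mice than any other of the 10 genes. Igfbp1 (ENSMUSG00000020429, chr11:7197782-7202546, plus strand) was at 245, 57.8, 143 and 29.7 CPM in control mice 154, 159, 181 and 193 and at 72.0, 186, 124 and 248 CPM in Mc1r LKO mice 141, 156, 157 and 182. The highest and the lowest mouse differed 8.36-fold. Both genotypes held a mouse at the high end, and the 2 lowest mice were controls, with Mc1r LKO mouse 141 next above them. The SD within genotypes was 1.1 on the log2 scale, larger than that of 98.4% of the genes tested. The means of 119 ± 96.7 and 158 ± 76.3 CPM (SD, n = 4 each) gave a log2 fold change of 0.41 (SE 0.58, 95% interval from -0.87 to 1.69, edgeR, adjusted p = 0.927). It was between 0.09 (without mouse 193) and 1.04 (without mouse 154) when single mice were left out, so a difference of this size was not detectable over the spread between mice.

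Per length of exon, as TPM, the count scaled by exon length and then by the total, over the 8 mice, Igfbp1 was the most abundant of the 10 genes (215 ± 129 TPM, SD, n = 8). Akt1 (28.1 ± 3.83 TPM) and Akt2 (25 ± 2.13 TPM) followed, then Pik3r1 (17.5 ± 2.75 TPM), Insr (16.6 ± 2.18 TPM) and Foxo3 (16.3 ± 2.56 TPM). Foxo1 (10.8 ± 1.81 TPM) and Pik3ca (10.3 ± 0.902 TPM) came next, and Irs1 (5.07 ± 0.925 TPM) and Irs2 (4.76 ± 1.52 TPM) were lowest. Neighbours in this order overlapped in their ranges over mice except for the steps from Igfbp1 to Akt1, from Akt2 to Pik3r1 and from Pik3ca to Irs1.

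A list of 25 genes described as FoxO1 targets, which includes Igfbp1, Irs2 and Insr, was read as a measure of FoxO1 output. In edgeR 0 of the 25 were called at the unadjusted threshold with the fold limit, against 5.31% of all genes called either way. For a list of this size 0 is close to that share. In edgeR 1 gene passed the unadjusted p alone, and the counts with the fold limit were 1 in DESeq2 (Klf15) and 0 in limma-voom. The median log2 fold change was -0.053, with 12 genes higher and 13 lower in mean. The gene that passed the p alone was Apoc3, an inhibitor of triglyceride clearance, with 1470 to 1860 CPM in control and 1770 to 1980 CPM in Mc1r LKO mice (log2 fold change 0.23, adjusted p = 0.74, exact permutation p = 0.0857). Klf15, a regulator of amino acid use in gluconeogenesis, had a log2 fold change of 0.48 (adjusted p = 0.745), and Sesn3, a stress protein that restrains mTORC1, one of -0.33 (adjusted p = 0.753).

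The gluconeogenic targets overlapped widely between the genotypes. Pck1, the enzyme that commits oxaloacetate to gluconeogenesis, was at 688, 1050, 1270 and 1860 CPM in control mice 154, 159, 181 and 193 and at 2450, 1370, 976 and 1920 CPM in Mc1r LKO mice 141, 156, 157 and 182. G6pc, which releases glucose from glucose-6-phosphate, was at 242, 60.3, 301 and 296 CPM and at 234, 174, 215 and 488 CPM in the same order, with control mouse 159 lowest and mouse 182 highest. Ppargc1a, a coactivator of both, was between 5.77 and 13.1 CPM. Pdk4, which spares pyruvate in fasting, reached 74.2 CPM in control mouse 154, while the other 7 mice were between 10.6 and 36.7 CPM. None of the 4 was called (edgeR, smallest adjusted p = 0.85, for Pck1).

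Of 19 genes that insulin induces in liver, 0 were called in edgeR, DESeq2 or limma-voom, and 0 passed the unadjusted p alone in edgeR. Over all genes edgeR called 5.31% either way, so 0 is close to that share for a list of this size. The median log2 fold change of the list was -0.043. Mlxipl, which encodes the glucose-responsive factor ChREBP, had a log2 fold change of -0.20 (adjusted p = 0.897). Srebf1, the gene of SREBP-1c, was between 273 and 538 CPM in control and between 242 and 463 CPM in Mc1r LKO mice.

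Of 20 genes that fasting induces, 6 were called higher and 0 lower in Mc1r LKO mice, against 2.64% of all genes called higher, with a median log2 fold change of 0.22 and 14 genes higher in mean. None passed the adjusted p in edgeR (adjusted p = 0.734 for each), while with DESeq2 Angptl4 (adjusted p = 0.00321) and Acot1 (adjusted p = 0.0484) did. The list shares Pck1, G6pc, Ppargc1a and Pdk4 with the FoxO1 targets, and none of these 4 was among the 6. Without control mouse 159 or without Mc1r LKO mouse 141, 3 of the 6 remained, Angptl4, Lpin1 and Acot1. The same 3 remained without control mouse 193, and Pck1 was then called as well. The list was chosen with earlier results of these data known, and its genes share regulators. Its share of called genes is therefore a description and not a test.

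The 6 genes are known to respond to fatty acid, glucocorticoid or amino acid signals. The part of these signals or of insulin in their differences was not tested. Angptl4, a PPAR-alpha target that inhibits lipoprotein lipase, was at 126, 94.8, 88.8 and 129 CPM in control and 170, 172, 184 and 173 CPM in Mc1r LKO mice (log2 fold change 0.67, SE 0.13, exact permutation p = 0.0286). Acot1, a PPAR-alpha-induced acyl-CoA thioesterase, was at 18.9, 12.8, 14.1 and 17.2 CPM and at 22.7, 22.4, 26.7 and 24.1 CPM (log2 fold change 0.60, SE 0.13, exact permutation p = 0.0286). In both, all Mc1r LKO mice were above all control mice. They were the 2 of the 20 genes whose genotypes did not overlap, against 558 of 13400 genes (4.16%) in either direction. Lpin1, a phosphatidate phosphatase and coactivator induced by glucocorticoids, was at 164, 106, 169 and 97.9 CPM and at 258, 361, 166 and 209 CPM, with mouse 157 within the control range (log2 fold change 0.89, SE 0.25, exact permutation p = 0.0571). Cyp4a14, a fatty acid omega-hydroxylase, had a log2 fold change of 0.88 (SE 0.36), Tat, the glucocorticoid-induced tyrosine aminotransferase, one of 0.88 (SE 0.37), and Asns, asparagine synthetase of the amino acid response, one of 0.99 (SE 0.42) at 0.558 to 3.46 CPM. Acot1 and Cyp4a14 have close paralogs beside them in the genome, and reads common to such copies can be lost or split in the counting, so their values are less certain.

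**Figure D3:**
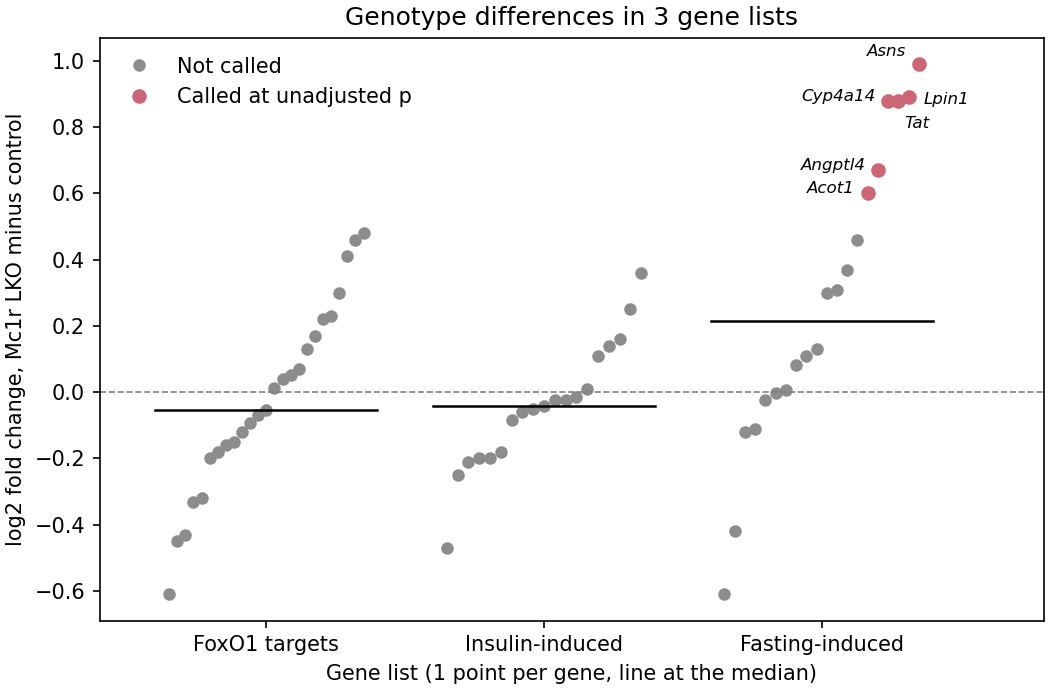
Fitted log2 fold change of Mc1r LKO minus control mice for each gene of 3 lists (1 point per gene in increasing order, line at the list's median). Red marks the genes called at the unadjusted threshold, which are 0 of 25 FoxO1 targets, 0 of 19 insulin-induced genes and 6 of 20 fasting-induced genes. Of all genes tested, 5.31% were called in either direction.

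The insulin state of each mouse was read from the same lists as the median deviation of their genes from the mean of the 8 mice, in log2 CPM. For the FoxO1 targets this median was 0.0086, 0.0033, 0.072 and 0.047 in control mice 154, 159, 181 and 193 and -0.054, -0.078, 0.028 and 0.12 in Mc1r LKO mice 141, 156, 157 and 182. The medians were near 0 because the genes went both ways, and mouse 182 was the highest of all mice in 8 of the 25 genes and the lowest in 7, control mouse 159 in 6 and 5, and mouse 157 in 0 and 0. For the insulin-induced genes it was 0.30, -0.20, 0.40 and -0.69 in the control mice and -0.19, 0.32, 0.081 and -0.36 in the Mc1r LKO mice. Control mouse 193 was above the mean in 2 of the 19 genes and the lowest of all mice in 10, whereas control mouse 181 was above the mean in 17 and control mouse 154 the highest of all mice in 7. High and low mice occurred in both genotypes, so this axis ran across the genotypes. For the fasting-induced genes the median was -0.031, -0.37, 0.13 and -0.089 in the control mice and 0.20, 0.061, 0.052 and 0.19 in the Mc1r LKO mice, with control mouse 159 below the mean in 17 of 20 genes.

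The single genes did not place the mice in one order from fed to fasted. Fasn, the fatty acid synthase that insulin induces and a gene chosen here after its values were seen, was at 4300, 2030, 3770 and 1420 CPM in control mice 154, 159, 181 and 193 and at 1860, 3480, 2940 and 1640 CPM in Mc1r LKO mice 141, 156, 157 and 182. Pnpla3, a lipid droplet protein under SREBP-1c, was at 54.7, 27.1, 32.9 and 5.06 CPM and at 11.8, 38.3, 27.9 and 8.28 CPM in the same order. Control mouse 193 was the lowest of the 8 in Fasn and Pnpla3 and also the lowest in Igfbp1, which insulin represses. Control mouse 154 was the highest in Fasn and Pnpla3, the second highest in Igfbp1 and the highest in Pdk4. Mouse 182 was the highest in Igfbp1 and G6pc and the second lowest in Fasn and Pnpla3. Irs2, which shares FoxO1 control with Igfbp1, was among the highest in mouse 193, where Igfbp1 was lowest.

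**Figure D4:**
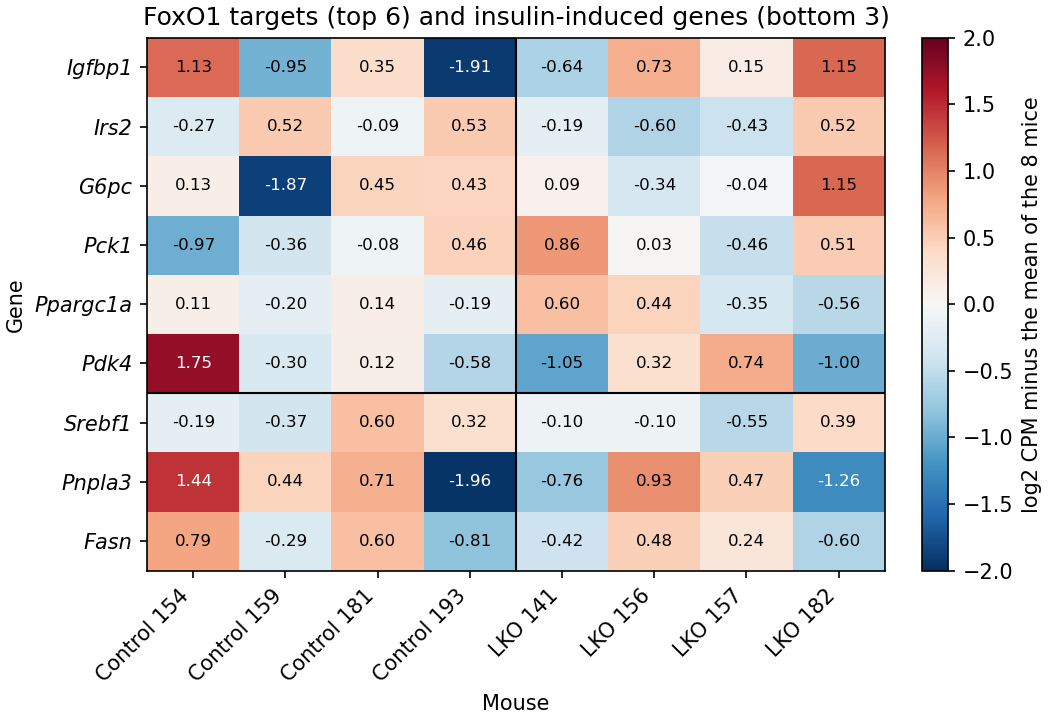
Deviation of log2 CPM from the mean of the 8 mice for 6 FoxO1 targets (above the line) and 3 insulin-induced genes (below it) in 4 control and 4 Mc1r LKO livers, red above and blue below the mean. Control mouse 193 is lowest in Igfbp1, Pnpla3 and Fasn together, and no column is of one colour throughout the FoxO1 targets.

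Across the 8 mice, log2 CPM of Igfbp1 was compared with that of each of the other 9 genes by exact permutation of the pairings. None of the 9 relations passed Benjamini-Hochberg adjustment. Foxo1 had the highest correlation (Pearson's r = 0.67, exact p = 0.0632, adjusted p = 0.47, Spearman's rho = 0.71, exact p = 0.0576, adjusted p = 0.208), and r was 0.29 without mice 159 and 193, the farthest from the median of Igfbp1. After centring on the genotype means, r was 0.74 (permutation p = 0.0329, adjusted p = 0.161) and rho 0.81 (permutation p = 0.0218, adjusted p = 0.098). Centred values sum to 0 within each genotype and cannot be exchanged freely between genotypes. The p-values after centring are therefore approximate and can be too small. The centred r was 0.75 without mice 154 and 193, the farthest on that scale. Because these checks left out different pairs, they do not show which relation depends less on single mice. Uncentred, r was 0.61 without mouse 159 alone and 0.57 without mouse 193 alone. Pik3ca followed with r = 0.62 (exact p = 0.104, adjusted p = 0.47) and rho = 0.69 (exact p = 0.0694, adjusted p = 0.208). After centring, r was 0.75 (permutation p = 0.0357, adjusted p = 0.161, approximate as above). Uncentred, the r of Pik3ca was 0.26 with library size alone as normalization (exact p = 0.528). With Irs2, which holds the same core sequence before its start, r was -0.46 (exact p = 0.245, adjusted p = 0.559) and rho -0.33 (exact p = 0.428, adjusted p = 0.642). That r was 0.30 without mice 159 and 193 and -0.82 without mouse 182. The labels name no batch, and 4 mice of a genotype are too few for a correlation within it.

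**Figure D5:**
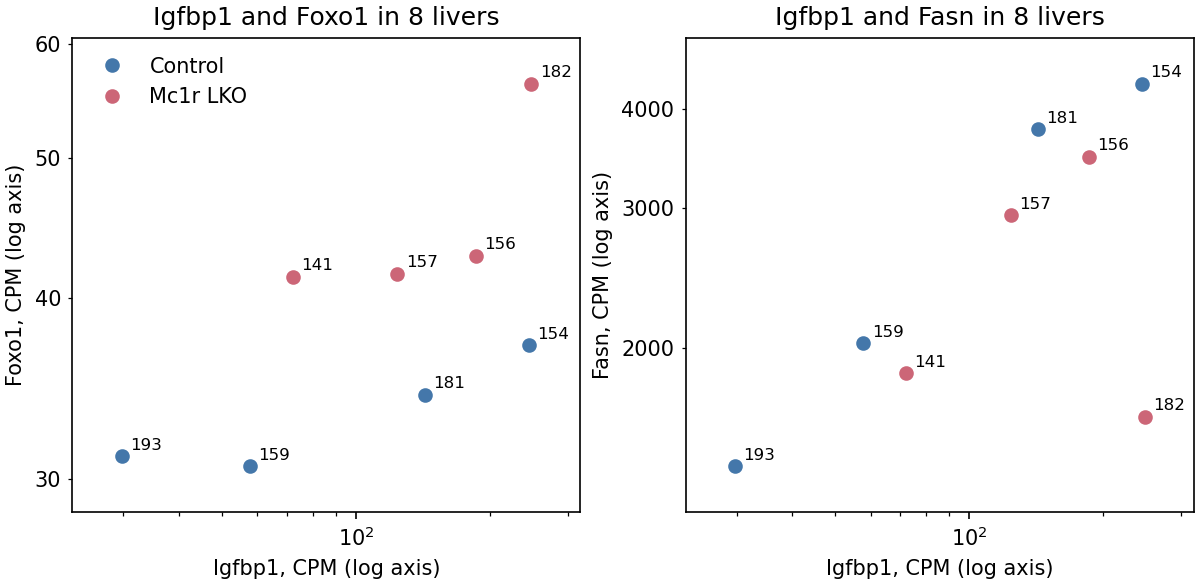
Igfbp1 against Foxo1 (left) and against Fasn (right) in CPM on log axes, with 1 point per liver labelled by mouse number, control in blue and Mc1r LKO in red. At a given Igfbp1 level the Mc1r LKO mice lie above the control mice in Foxo1, and mouse 182, with 248 CPM of Igfbp1 and 1640 CPM of Fasn, lies apart from the other 7 mice in the right panel.

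The genes whose log2 CPM followed Igfbp1 most closely over the 8 mice were Adcy1 (Pearson's r = 0.98), Irf2bp2 (0.955), Ltv1 (0.954), Tmem250-ps (0.953) and Mfsd14a (0.942), as a description of the highest values among all genes tested in libraries that share their depth and normalization. Adcy1, an adenylyl cyclase gene, lies beside Igfbp1 on the same strand (chr11:7063489-7178506), with 19275 bases between the genes. It was at 2.87, 0.744, 1.88 and 0.448 CPM in control mice 154, 159, 181 and 193 and at 0.76, 2.66, 1.29 and 3.42 CPM in Mc1r LKO mice 141, 156, 157 and 182, from 8 to 67 counts per mouse. In CPM its order of mice was the same as that of Igfbp1, from mouse 193 lowest to mouse 182 highest, with mice 159 and 141 nearly equal in Adcy1. The genes most like Irs2 were Whamm (0.975), Lmbr1l (0.957), Fam120b (0.949), Gnb1l (0.94) and Hdac5 (0.935).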

How the data were processed

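The authors trimmed the reads (Trim Galore 0.6.6), aligned them with STAR 2.7.6a and counted read pairs per gene with featureCounts (Subread 2.0.1, strand option 2), and deposited 1 table of raw counts per mouse. The headers name an Ensembl annotation of GRCm38, release 102, and the methods text writes GRCh38. Symbols were matched for 55141 of 55487 identifiers.

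From these counts, genes were filtered with filterByExpr (minimum count 10, minimum total 15, by group), which kept 13400, normalized by TMM and tested with the quasi-likelihood test of edgeR 4.0.16 in R 4.3.3, and p-values were adjusted over all genes kept (Benjamini-Hochberg). The biological coefficient of variation was 0.209. A gene was called where the unadjusted p was under 0.05 and the log2 fold change 0.25 or more in either direction, and separately at an adjusted p under 0.05. Log2 CPM had a prior count of 2. TPM used the exon lengths of the tables. The total of counts per mouse and the 4 mice per group set the precision. The fit was tested on simulated data.

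Groups came from the sample titles. The genes and lists were chosen with earlier results of these data known. Named are the 10 genes, the called genes of each list or otherwise up to 3 with the smallest p, genes of insulin and fasting state (some genes that the rule names are not reported here), the 5 genes most like Igfbp1 and Irs2, and the checks Mc1r, Xist (0 to 2 counts) and Ddx3y (34.6 to 59.8 CPM). Alternatives were DESeq2 1.42.0, limma-voom (limma 3.58.1), RLE, library size alone, 2 other filters, a robust fit, no fold limit, another prior count for the correlations, each mouse left out and, chosen after seeing the data, mice 181 and 182 left out. Nothing names separate litters or cages for these mice, so the p-values measure the spread between these samples.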

Additional observations from a re-analysis of the deposited data

Results flagged for a closer look

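In 4 of 54 groups of 4 mice checked, among them the 10 genes and the called or state genes in each genotype, 1 mouse lay outside the other 3 by Dixon's criterion, where chance gives about 1 in 20 groups, or 2.7 of these. In Mc1r LKO mouse 182, Foxo1 was at 56.3 CPM, against 41.4 to 42.8 CPM in the other Mc1r LKO mice. In the same mouse, Irs1 was at 29.3 CPM, against 15.7 to 18.0 CPM. Pik3cd was at 2.71 CPM in mouse 182, against 3.77 to 3.88 CPM in the other Mc1r LKO mice. In control mouse 154, Pdk4 was at 74.2 CPM, while the rest of the control mice were at 14.7 to 23.9 CPM.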

How the results depend on the processing

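Foxo1 was called higher at the unadjusted threshold under every alternative run, and 0 of the 10 genes passed the adjusted p under any. The count of called genes among the 10, 1 as reported, was 2 with library size alone (Foxo1 and Pik3r1), 2 without mice 181 and 182 (Foxo1 and Irs2) and 1 to 3 when each mouse was left out (3 without mouse 157, with Foxo3 and Pik3r1). The count of FoxO1 targets, 0 as reported, was 1 with DESeq2 (Klf15), 2 with no filter beyond 1 count (Klf15 and Sesn3), 2 without mice 181 and 182 (Klf15 and Irs2), 1 with no fold limit (Apoc3) and 0 to 3 when each mouse was left out (0 without mice 154 or 156, 3 without mouse 157). The 3 pathway genes became 5 without mice 181 and 182 and 2 to 5 when each mouse was left out (5 without mouse 157 or mouse 182), the 0 insulin-induced genes 0 to 1, 1 of them without mouse 159 and 1, Mlxipl, without mouse 182, and the 6 fasting-induced genes 3 to 6 (3 without mouse 159 or mouse 141, and 4 without mouse 193, with Pck1). The sign turned for Irs1 without mice 181 and 182 (-0.11) and over single mice left out (-0.17 to 0.17), for Pik3ca (-0.069 to 0.013) and for Akt1 (-0.0016 to 0.11). For Akt2 it turned with DESeq2 (0.00052), limma-voom (0.00015), RLE (0.0012), no filter (0.0039), without mice 181 and 182 (0.028) and over single mice left out (-0.045 to 0.071). The correlation of Igfbp1 with Pik3r1 turned after centring (0.31), and over single mice left out the correlations with Irs1 (-0.12 to 0.50), Pik3r1 (-0.29 to 0.19) and Akt1 (-0.45 to 0.33) turned. Without the filter 1140 of 24087 genes tested were called at the unadjusted threshold, against 711 of 13400 with it. Over all genes 17 passed the adjusted p with DESeq2 and 1 without the filter. The cause of these changes was not tested. No paired analysis was run, because the labels name no litter, cage or other pairing between the genotypes. The paper mentions cages of mixed genotypes, so whether any of these mice shared a litter or cage is not known. With 4 mice per genotype, the interval of Igfbp1 spans changes in both directions.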

Other observations

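The genes of the insulin-like growth factor axis, which Igfbp1 binds and insulin also controls in liver, were read as a list of 9, of which Igfbp6 was not kept by the filter. In edgeR 0 of the 8 tested were called, against 5.31% of all genes called either way. The median log2 fold change was 0.20, with 6 genes higher in mean in Mc1r LKO mice. Igf1, the circulating growth factor, was at 261, 353, 335 and 267 CPM in control mice 154, 159, 181 and 193 and at 331, 361, 307 and 427 CPM in Mc1r LKO mice 141, 156, 157 and 182 (log2 fold change 0.23, edgeR, adjusted p = 0.816). Igfals, which holds the factor in its circulating complex, reached 75.5 CPM in mouse 182, while the other 7 mice were between 24.0 and 38.0 CPM (log2 fold change 0.47, adjusted p = 0.798). Igfbp3, which lies on the same chromosome beside Igfbp1 on GRCm38, was between 25.4 and 43.7 CPM in control and between 16.7 and 36.7 CPM in Mc1r LKO mice (log2 fold change -0.32, adjusted p = 0.862), without the spread of Igfbp1.

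Igfbp1 was also compared with 8 genes of insulin and fasting state across the 8 mice, a choice made after the values were seen. With Fasn, r was 0.63 (exact permutation p = 0.0977, adjusted p = 0.552) and rho 0.45 (exact p = 0.267, adjusted p = 0.715), and r was 0.28 without mice 159 and 193. None of the 8 relations passed the adjustment.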
